A study of Homo sapiens with 4 samples.

Results

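The report covers 10 genes of the matrix-degrading system: the matrix metalloproteinases MMP1, MMP2, MMP3, MMP7, MMP9, MMP10 and MMP14 and the tissue inhibitors TIMP1, TIMP2 and TIMP3. They were chosen by gene name, 10 of the 25992 gene names on the array, and each was read by 1 probe. Human proximal tubular cells (HPTCs) had spent 24 h without serum and supplements before the SGLT2 inhibitor empagliflozin (Empa, 500 nM) and IL-1β (10 ng/mL) were given together for 24 h. There were 2 one-colour Agilent arrays of HK-2 cells, a proximal tubular line immortalised with papillomavirus E6 and E7 genes, and 2 of RPTEC/TERT1 cells, a proximal tubular line immortalised with the telomerase subunit TERT. The arrays of a line are called array 1 and array 2 after their replicate numbers. Each is a single established line, and the lines were grown in different media, HK-2 with serum and pituitary extract and RPTEC/TERT1 with insulin, transferrin, selenite and hydrocortisone, so line and medium cannot be told apart. Control HPTCs and HPTCs given only IL-1β were not analysed here, and no effect of IL-1β or of Empa on these genes can be read from the values below.

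Matrix metalloproteinases are zinc endopeptidases that are made as inactive proenzymes and that cut collagens, laminins, other matrix proteins and many proteins of the cell surface. TIMPs bind their catalytic site and block it, and TIMP2 also serves, together with the membrane-bound MMP14, to activate proMMP2. In the kidney these enzymes take part in the turnover of tubular basement membranes, and MMP7 is known as a product of injured tubular epithelium.

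The arrays need a remark before the results. Across the 16468 genes tested, HK-2 array 1 lay closest to RPTEC/TERT1 array 2, and HK-2 array 2 to RPTEC/TERT1 array 1, so the arrays paired across the labelled cell lines. Whether labels were exchanged between arrays was not tested. The groups are those of the labels throughout, and every value of HK-2 minus RPTEC/TERT1, like each count of genes called, holds only for the arrays as labelled. Between 59.2% and 64.9% of the 43118 non-control spots were well above background on an array, and the 75th percentile of the signal lay between 393 and 748 units. Of 16 proximal tubule markers, 8 were well above background on all 4 arrays, among them LRP2 and PAX8, and 3 (CUBN, SLC22A6 and HNF4A) on none. Of 7 fibroblast markers none was well above background on all 4 arrays and COL1A2, COL3A1, PDGFRB and PDGFRA were on none, and of 6 leukocyte markers PTPRC, CD68 and CD14 were well above background on all 4. Of 5 endothelial markers CDH5 was well above background on all 4 arrays and VWF, KDR and TEK on none, and of 5 distal nephron markers UMOD was on all 4 and SLC12A3, AQP2 and CALB1 on none. In bulk RNA of this kind fewer cells of a type and less RNA per cell cannot be told apart.

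A level is the log2 of a processed signal over the 75th percentile of the array, so a level of 0 equals that percentile. Levels of 1 gene are compared between arrays, never between genes, since probes differ in brightness. A member counted as well above background on an array where at least 1 in 2 of its spots carried that mark of the scanner software, outlier spots left out. By this measure 5 members (MMP7, MMP9, MMP14, TIMP1 and TIMP2) were well above background on at least 2 arrays and 5 (MMP1, MMP2, MMP3, MMP10 and TIMP3) on none.

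The probes of MMP7 and TIMP1 lie in coding sequence, each as 1 unbroken stretch of the genome, and their 60 bases are printed because these members differed most between arrays among those read by a single spot. The MMP7 probe matches chr11:102394029-102394088 on the minus strand and the TIMP1 probe chrX:47444666-47444725 on the plus strand of GRCh37.
MMP7 probe: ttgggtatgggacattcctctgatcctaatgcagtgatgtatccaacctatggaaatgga
TIMP1 probe: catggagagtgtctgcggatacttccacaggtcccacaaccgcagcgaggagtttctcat

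The RefSeq table of GRCh38.p14 gave a promoter for 5 of the 10 members (MMP7, MMP10, MMP14, TIMP1 and TIMP3). The 250 bases upstream of MMP7 (chr11:102530748-102530997, minus strand) and of MMP10 (chr11:102780629-102780878, minus strand) are printed because these neighbours of 1 gene cluster differed in detection, with the MMP7 spot saturated on 2 arrays and the MMP10 spot well above background on none. Capitals mark TGAGTCA (AP-1) and CTTTGAA (TCF), searched on both strands, and TATAAA, searched on the gene's strand.
MMP7 promoter: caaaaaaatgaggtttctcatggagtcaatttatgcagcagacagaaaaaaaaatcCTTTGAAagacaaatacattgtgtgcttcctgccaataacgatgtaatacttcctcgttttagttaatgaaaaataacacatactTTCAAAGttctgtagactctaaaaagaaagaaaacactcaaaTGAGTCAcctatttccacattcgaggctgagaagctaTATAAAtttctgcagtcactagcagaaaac
MMP10 promoter: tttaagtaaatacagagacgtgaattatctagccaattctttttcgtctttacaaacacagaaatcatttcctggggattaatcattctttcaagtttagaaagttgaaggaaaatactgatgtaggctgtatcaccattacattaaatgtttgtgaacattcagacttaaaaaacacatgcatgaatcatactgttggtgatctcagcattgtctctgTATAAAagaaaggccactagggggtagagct

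In the MMP7 window TGAGTCA begins 67 bases upstream of the transcript start, the TCF letters begin 194 and 109 bases upstream, the nearer match on the opposite strand, and TATAAA begins 30 bases upstream. The MMP10 window holds only TATAAA, 31 bases upstream. Of 35116 RefSeq promoters of the same length, 4.2% hold the AP-1 letters, 3.8% the TCF letters and 6.8% TATAAA. The windows of MMP14, TIMP1 and TIMP3 hold none of these letters. A match is a description of the letters and not of a bound factor.

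MMP7, or matrilysin, is a small metalloproteinase of epithelial cells that sheds E-cadherin and other surface proteins, and it spread more between arrays than any other member well above background. Its signal was 92389 on HK-2 array 1, 4428 on RPTEC/TERT1 array 1 and 72605 on RPTEC/TERT1 array 2, which corresponds to levels of 7.88, 3.18 and 7.40. The spots of HK-2 array 1 and RPTEC/TERT1 array 2 were saturated, with 39 of 57 and 61 of 66 pixels at the limit of the scanner, so these levels are lower bounds. On HK-2 array 2 the scanner software marked the only spot as an outlier for uneven brightness, so MMP7 had no value there and was not tested.

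RPTEC/TERT1 array 1 was the lowest of these 3 arrays by far. How far HK-2 array 1 and RPTEC/TERT1 array 2 lay apart cannot be said, since both were saturated. As scaled here, the signal of RPTEC/TERT1 array 2 exceeded that of array 1 by at least 18.7-fold (4.22 on the log2 scale), and that of HK-2 array 1 exceeded it by at least 25.9-fold (4.70). These bounds moved with the processing. Under the other background corrections and scalings, the gap was 3.97 to 4.40 for RPTEC/TERT1 array 2. For HK-2 array 1 it was 3.19 (9.16-fold) under normexp correction, 3.99 (15.9-fold) in the deposited log2 values, 4.18 (18.1-fold) under quantile normalization, 4.31 under normexp without 7 spots of bright local background (described below with MMP9) and 4.69 when scaled to detected probes. RPTEC/TERT1 array 1 was the lowest of the 3 arrays in all of them. As scaled here and measured on 3 arrays, the range was a lower bound, and 2.50% of the genes tested had a wider measured one over 4 arrays. Other genes with saturated spots or signals at background have ranges that are lower bounds too, so this share is not a bound. No mean, SD or difference between the lines is given for MMP7, since each line has a saturated spot.

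MMP9, or gelatinase B, cuts denatured collagens and type IV collagen of basement membranes. Its probe (chr20:44645121-44645180, plus strand, GRCh37) was printed 10 times on each array, and all 10 spots were well above background on every array. The median signal was 33.1 on HK-2 array 1, 159.8 on HK-2 array 2, 105.7 on RPTEC/TERT1 array 1 and 37.3 on RPTEC/TERT1 array 2. Relative to the 75th percentile this was 8.41%, 21.4%, 21.7% and 8.70%, or mean levels of -3.59, -2.21, -2.21 and -3.55. HK-2 array 2 and RPTEC/TERT1 array 1 were high and the other arrays low, so each cell line had a high and a low array and the lines overlapped. The spots of 1 array had an SD of 0.095 to 0.19 in level, which is technical spread within that array, while the arrays of a line lay 1.38 (HK-2) and 1.33 (RPTEC/TERT1) apart.

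The mean level of MMP9 was -2.90 ± 0.98 (SD, n = 2) in HK-2 and -2.88 ± 0.94 (SD, n = 2) in RPTEC/TERT1. The difference of -0.014 (SE 0.78, adjusted p = 1, limma with Benjamini-Hochberg adjustment) had a 95% interval from -2.12 to 2.09, so a change of 4-fold in either direction lay within it. The place of HK-2 array 1 depended on the background correction. With normexp correction against the local background, MMP9 was highest on that array, at -0.29 against -1.82, -1.71 and -2.31 on HK-2 array 2, RPTEC/TERT1 array 1 and RPTEC/TERT1 array 2, and it was highest there in the deposited log2 values too. That array held 7 spots with a local background over 100 units, up to 48831, and no other array exceeded 54. With those spots left out before the normexp step, the levels were -2.28, -1.82, -1.71 and -2.31, the order of high and low arrays was that of the processed signal, and the range was 0.60 in place of 1.38. Before any correction the median MMP9 spot exceeded its local background by 40.3, 171, 118 and 43.2 units on the same arrays. The deposited log2 values had a median of 8.31 on HK-2 array 1, against 6.65 to 7.04 on the others, although its 75th percentile of signal was the lowest. Whether the bright-background spots shaped the deposited values was not tested.

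Some marker genes had the order of MMP9 over the arrays, as did 33.2% of all genes tested. The opposite order was shown by 38.8%. MMP9 itself lost its order under normexp correction with all spots and in the deposited log2 values. The summed level of the leukocyte markers, as a multiple of the 75th percentile, was 1.04 on HK-2 array 1, 1.49 on HK-2 array 2, 1.98 on RPTEC/TERT1 array 1 and 0.941 on RPTEC/TERT1 array 2. Of the 4 leukocyte markers well above background on at least 2 arrays, CD68 and CD14 had the order of MMP9, and PTPRC and ITGAM did not. The sum of the fibroblast markers was 0.186, 1.97, 1.50 and 0.178, with DCN and LUM well above background on the arrays where MMP9 was high and not on the others. Any marker below 0.0242 of the 75th percentile was set to that floor. The sums of 0.186 and 0.178 thus came mostly from markers at or near it, and the floor entered the other sums too. The proximal tubule markers summed to 35.9, 8.32, 13.1 and 29.1, high where MMP9 was low and where MMP7 was saturated. Of the 12 well above background on at least 2 arrays, 7 (among them PAX8, PAX2 and DPP4) had this order and 3 (LRP2, GGT1 and CDH6) that of MMP9. A sum follows its brightest probes and not the list as a whole. On HK-2 array 1 these were PAX8, PAX2 and DPP4, with levels of 4.13, 2.90 and 2.79. The distal nephron markers summed to 0.900, 0.243, 0.243 and 1.17. The endothelial markers summed to 0.419, 0.291, 0.220 and 0.278. Their part in the levels of MMP9 and MMP7 was not tested.

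**Figure D1:**
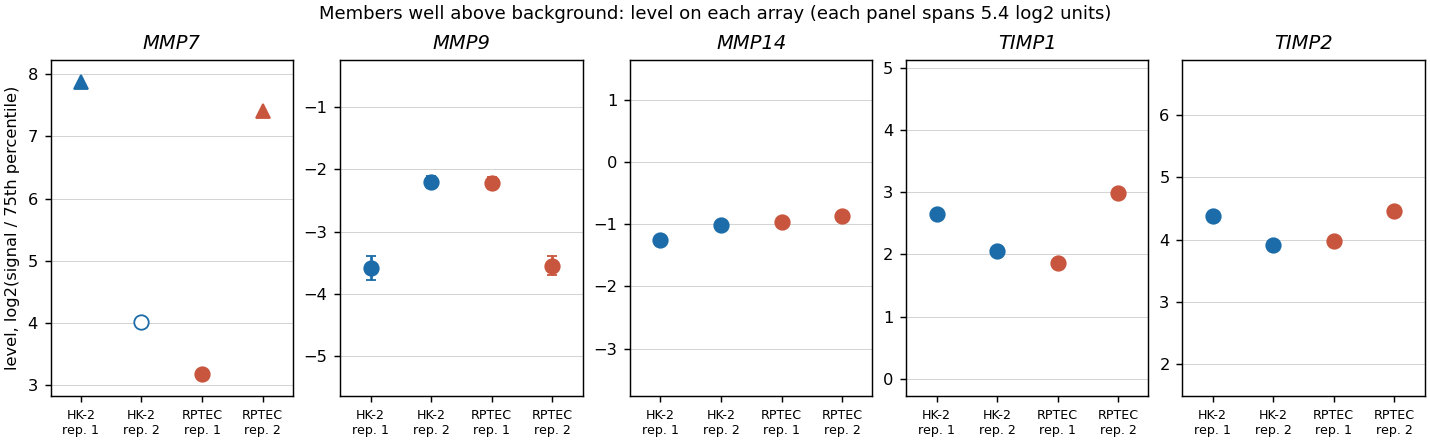
Level (log2 of the signal over the 75th percentile of the array) of the 5 members well above background on at least 2 arrays, for the HK-2 (blue) and RPTEC/TERT1 (red) arrays. Triangles are saturated spots, the open circle is the MMP7 spot marked as an outlier and left out (4.01), and bars on MMP9 are the SD over its 10 spots. MMP7 on RPTEC/TERT1 array 1 (3.18) lies far below RPTEC/TERT1 array 2 (7.40), and MMP14 lies within 0.38 on all arrays.

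**Figure D2:**
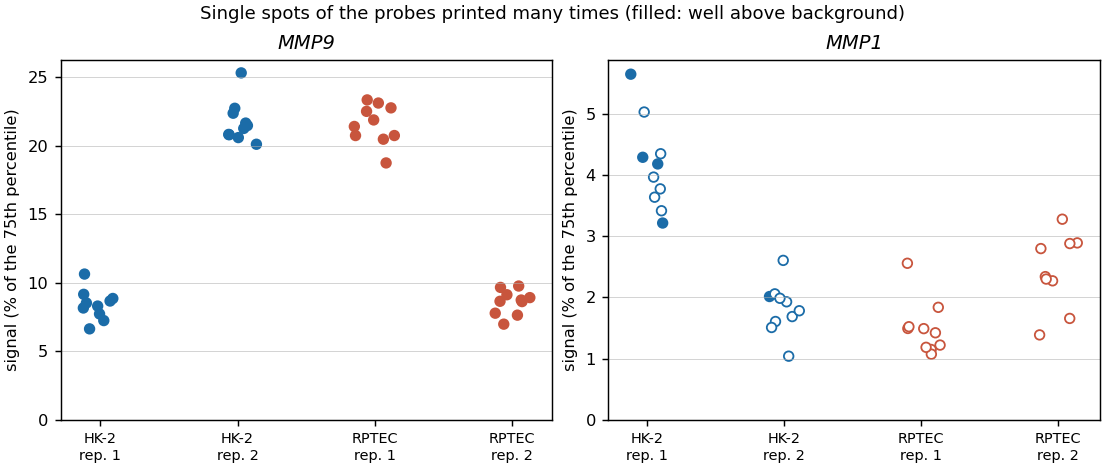
Signal of single spots, in percent of the 75th percentile of the array, of the MMP9 and MMP1 probes, 10 spots on each array, outlier spots left out. Filled points were well above background. The MMP9 spots of HK-2 array 2 and RPTEC/TERT1 array 1 (medians 21.4% and 21.7%) lie apart from those of the other arrays (8.41% and 8.70%).

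MMP14, the membrane-type metalloproteinase that cuts fibrillar collagens and activates proMMP2, had the narrowest range of the 4 members tested (MMP9, MMP14, TIMP1 and TIMP2), except under quantile normalization, where TIMP2 had 0.31 and MMP14 0.41. The signal of its probe (chr14:23315791-23315850, plus strand, GRCh37) was 165, 371, 249 and 235 on HK-2 arrays 1 and 2 and RPTEC/TERT1 arrays 1 and 2, or levels of -1.25, -1.01, -0.97 and -0.87. The range of 0.38, or 1.30-fold, was exceeded by 90.8% of the genes tested. Both RPTEC/TERT1 arrays lay above both HK-2 arrays, and MMP14 was the only 1 of the 4 members tested whose cell lines did not overlap, against 7.17% of all genes tested. The gap between the lines rested on 0.041 between HK-2 array 2 and RPTEC/TERT1 array 1, and the lines overlapped under quantile normalization, under normexp correction and in the deposited log2 values. The means of -1.13 ± 0.17 (SD, n = 2) in HK-2 and -0.92 ± 0.071 (SD, n = 2) in RPTEC/TERT1 differed by -0.21 (SE 0.43, adjusted p = 1, limma with Benjamini-Hochberg adjustment), with a 95% interval from -1.37 to 0.95. The sign turned to 0.27 under normexp correction and 0.089 in the deposited log2 values, and was -0.13 under normexp without the 7 bright-background spots.

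TIMP1 is a secreted inhibitor of most soluble metalloproteinases that also binds proMMP9. Its signal was 2454, 3121, 1781 and 3380 on HK-2 arrays 1 and 2 and RPTEC/TERT1 arrays 1 and 2, or levels of 2.64, 2.06, 1.87 and 2.98. RPTEC/TERT1 array 2 was the highest array and RPTEC/TERT1 array 1 the lowest, so both HK-2 arrays fell within the RPTEC/TERT1 range. The arrays of RPTEC/TERT1 lay 1.11 apart (2.16-fold) and those of HK-2 0.58 (1.50-fold). The means were 2.35 ± 0.41 (SD, n = 2) in HK-2 and 2.42 ± 0.79 (SD, n = 2) in RPTEC/TERT1, a difference of -0.071 (SE 0.60, adjusted p = 1, limma with Benjamini-Hochberg adjustment) with a 95% interval from -1.69 to 1.55.

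TIMP2, the inhibitor that bridges MMP14 and proMMP2 at the cell surface, varied less than TIMP1. The signal of its probe (chr17:76849063-76849122, minus strand, GRCh37) was 8176, 11314, 7685 and 9406 on the same arrays in the same order, or levels of 4.38, 3.92, 3.98 and 4.46. The lines overlapped, and the range of 0.54 (1.45-fold) was exceeded by 81.9% of the genes tested. Across the background corrections and scalings tried that range ran from 0.31 to 1.24. The means of 4.15 ± 0.32 and 4.22 ± 0.34 (SD, n = 2 each) differed by -0.067 (SE 0.48, adjusted p = 1, limma with Benjamini-Hochberg adjustment), with a 95% interval from -1.36 to 1.22.

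TIMP1 and TIMP2 were both higher on HK-2 array 1 and RPTEC/TERT1 array 2 than on the other arrays, an order that 38.8% of all genes tested showed, and MMP9 had the opposite order, shown by 33.2%. MMP14 had neither order. Under normexp correction TIMP1 and TIMP2 were lowest on HK-2 array 1, at 1.52 and 3.07, and TIMP2 was lowest there in the deposited log2 values, at 3.65. With the 7 bright-background spots left out, normexp gave 2.52 and 4.15 on that array, and both genes were again higher on HK-2 array 1 and RPTEC/TERT1 array 2 than on the others.

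The remaining members were not well above background on any array by the measure given above. MMP1, the interstitial collagenase, still had single spots well above background, on the HK-2 arrays among the spots kept. Its probe (chr11:102660697-102660756, minus strand, GRCh37) was also printed 10 times, and 4, 1, 0 and 0 of the spots kept were well above background on HK-2 arrays 1 and 2 and RPTEC/TERT1 arrays 1 and 2. On RPTEC/TERT1 array 2, 1 of the 10 spots was well above background, with a signal of 71.3, but was marked as an outlier and left out. The median signals were 16.0, 13.9, 7.11 and 10.0, and only 2, 5, 3 and 2 of the 153 negative control spots were brighter on the same arrays. MMP1 was thus above most negative controls on all arrays while most of its spots missed the mark of the software, and no fold is given.

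MMP2, gelatinase A (chr16:55540518-55540577, GRCh37), had signals of 1.69 and -1.58 on the HK-2 arrays and 6.33 and 8.72 on the RPTEC/TERT1 arrays. None was well above background, although only 4 and 3 of 153 negative controls were brighter on the RPTEC/TERT1 arrays, against 17 and 28 on the HK-2 arrays. Both RPTEC/TERT1 signals of MMP2 exceeded the 95th percentile of the negative controls (3.91 and 2.31), and neither HK-2 signal did. MMP3 and MMP10, stromelysins that cut proteoglycans and activate other proenzymes, lay at or near background. MMP3 (chr11:102706694-102706753, GRCh37) had signals below 0 on all 4 arrays, from -7.27 to -2.13. MMP10 (chr11:102641405-102641464, GRCh37) had signals of 6.48 and 7.24 on the HK-2 arrays and 1.54 and 2.11 on the RPTEC/TERT1 arrays, with 6 to 15 of 153 negative controls brighter. On HK-2 array 1 the MMP10 signal exceeded the 95th percentile of the negative controls (5.15), and on the other arrays it did not.

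TIMP3, the inhibitor that stays bound to the matrix and also blocks ADAM17, had signals of 2.44, 3.30, 3.23 and 0.339 on the 4 arrays (chr22:33258540-33258599, GRCh37), and 11 to 22 negative controls were brighter. A signal at background means that the transcript was not detectable with these probes, not that it was absent. A single probe per gene limits this further, since a transcript form that lacks the probed bases would be missed.

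**Figure D3:**
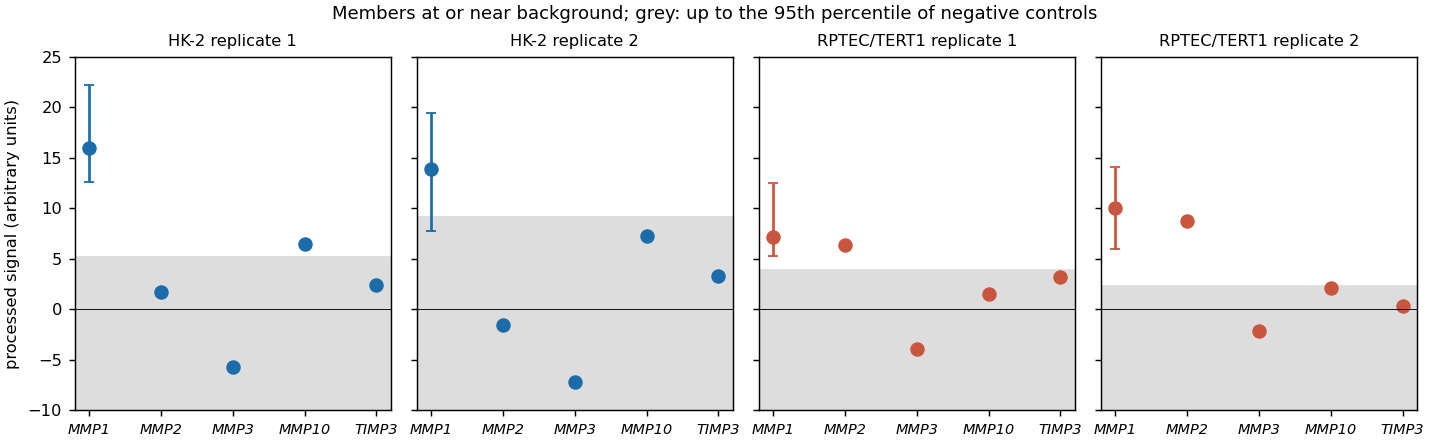
Processed signal (arbitrary units) of the 5 members at or near background, for each array; for MMP1 the point is the median of its spots and the bar runs from the lowest to the highest, outlier spots left out. The grey area reaches up to the 95th percentile of the 153 negative control spots (5.15, 9.12, 3.91 and 2.31). MMP3 lies below 0 on all 4 arrays and TIMP3 inside the grey area on all 4, while the MMP1 medians lie above it. MMP2 lies above it on both RPTEC/TERT1 arrays and MMP10 on HK-2 array 1.

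The comparison of the cell lines asks whether these genes are held at different levels in the HPTC lines under the same stimulus. None of the 4 members tested passed the threshold between HK-2 and RPTEC/TERT1 by limma with Benjamini-Hochberg adjustment. Of all 16468 genes tested 0 passed at 0.05 (0%), and 23 (0.140%) had an unadjusted p under 0.05, none of them a member. The median absolute difference between the lines was 0.069 over the members tested and 0.13 over all genes tested, and the median range over the 4 arrays was 0.82 against 1.05. The labels number the arrays as separate samples and the methods call them biological duplicates, so the SDs rest on 2 values each. These p-values measure only the spread between such arrays.

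How many members differed by more than 1 on the log2 scale depended on the pair of arrays compared. HK-2 array 1 and HK-2 array 2 differed so in 1 of 4 members with a value on both (MMP9), as did 34.0% of all genes tested. RPTEC/TERT1 arrays 1 and 2 differed so in 3 of 5 (MMP7, MMP9 and TIMP1), as did 40.4% of all genes. Between HK-2 array 1 and RPTEC/TERT1 array 2 none of the 4 members tested did, with differences of at most 0.38, and 4.90% of all genes did. MMP7 was saturated on both and could not be compared there. Between HK-2 array 2 and RPTEC/TERT1 array 1 none of 4 did, with differences of at most 0.19, and 6.78% of all genes did. Same-numbered arrays differed in MMP7 and MMP9 (2 of 5) for the arrays numbered 1, as did 36.0% of all genes, and in MMP9 (1 of 4) for those numbered 2, as did 33.7%.

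**Figure D4:**
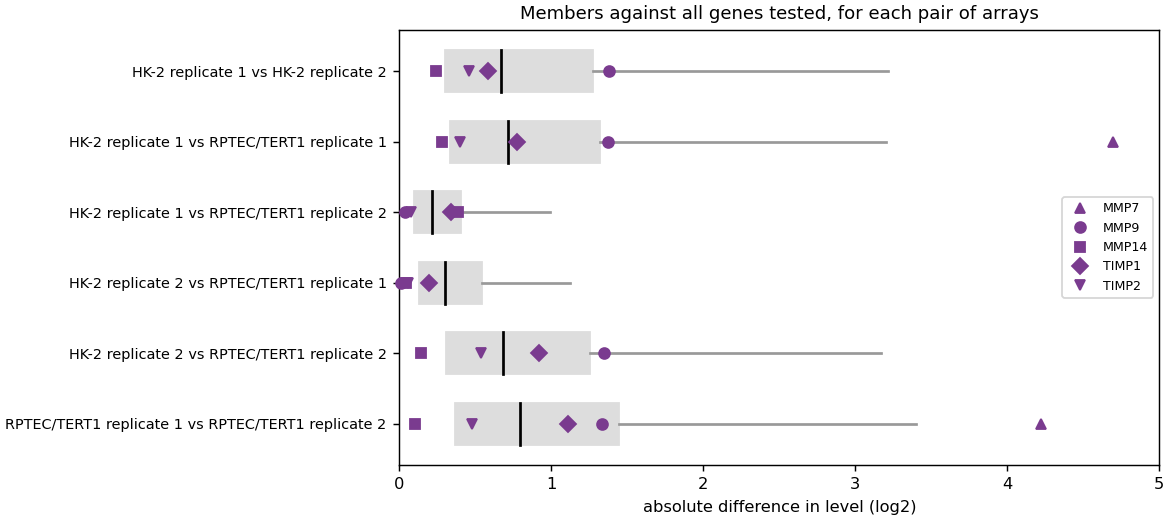
Absolute difference in level (log2) between the arrays of each of the 6 pairs. Grey boxes span the middle 50% of all 16468 genes tested, the black line is their median, the grey line reaches their 95th percentile, and symbols are the members with a value on both arrays, without MMP7 where both its spots were saturated. The MMP7 differences shown are lower bounds. MMP7 lies beyond 4 in both pairs that set RPTEC/TERT1 array 1 against a saturated array, and no member drawn passes 0.38 between HK-2 array 1 and RPTEC/TERT1 array 2.

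The wider family was read from 39 genes on 4 lists, chosen like the members with earlier results of these data known: 16 other metalloproteinases, 5 other inhibitors, 8 activators and partners and 10 related metalloproteinases of the ADAM and ADAMTS families. Of these, 21 were well above background on all 4 arrays and 12 on none, and 24 could be tested. Of the 24, 0 were higher and 0 lower in HK-2 at that threshold by limma with Benjamini-Hochberg adjustment, and none had an unadjusted p under 0.05. Their median range over the arrays was 1.91 against 1.05 over all genes tested. The median absolute difference between the lines was 0.15 against 0.13.

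Of all 23 metalloproteinase genes on the array, members included, 9 were well above background on all 4 arrays (MMP9, MMP14, MMP15, MMP17, MMP19, MMP23B, MMP24, MMP25 and MMP28). The probes of 9 metalloproteinase genes (MMP7, MMP20, MMP27, MMP8, MMP10, MMP1, MMP3, MMP12 and MMP13) lie within 420 kb of chromosome 11, from base 102394029 to base 102813832 of GRCh37. MMP7 was the only 1 of these 9 to be well above background on any array.

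Plasminogen activators start the cascade that turns proenzymes into active metalloproteinases. PLAT, PLAU, FURIN, MMP15, MMP17 and MMP25 are named for having the widest ranges among related genes well above background on all 4 arrays. Their wide ranges thus follow from that choice. PLAT and PLAU had opposite orders. PLAT, the tissue activator, had levels of -1.04 and 2.98 on HK-2 arrays 1 and 2 and of 3.39 and -0.68 on RPTEC/TERT1 arrays 1 and 2. PLAU, the urokinase, read as the mean of 2 probes, had levels of 5.00, 1.58, 1.58 and 4.66 on the same arrays. With its brightest probe alone they were 7.42, 4.17, 4.11 and 7.21. PLAT was thus high where MMP9 was high, an order that 33.2% of all genes tested showed. PLAU was high where MMP9 was low, the order of 38.8%. MMP9 lost its order under normexp correction with all spots and in the deposited log2 values. PLAT and PLAU kept theirs under each background correction and scaling tried. Neither passed the threshold between the lines (a difference of -0.38, SE 2.00, for PLAT and of 0.17, SE 1.63, for PLAU, each with adjusted p = 1 by limma with Benjamini-Hochberg adjustment). FURIN, the proprotein convertase that activates membrane-type metalloproteinases inside the cell, had levels of -1.33, -3.39, -3.26 and -1.40.

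Among the other membrane-type metalloproteinases, MMP15 had levels of -0.39, 1.94, 2.35 and -0.78 on HK-2 arrays 1 and 2 and RPTEC/TERT1 arrays 1 and 2. MMP17, anchored to the membrane by a lipid, had 0.40, 1.70, 0.54 and 2.93, and MMP25, anchored likewise and read as the mean of 2 probes, -2.38, -4.55, -4.49 and -4.06. MMP15 was high on HK-2 array 2 and RPTEC/TERT1 array 1, and MMP17 was higher on array 2 of each line. MMP25 was highest on HK-2 array 1 as the mean of its probes, but with the brightest probe alone HK-2 array 1 (-2.77) and RPTEC/TERT1 array 2 (-2.75) were level and the range was 0.98 in place of 2.18. None of these genes passed the threshold between the lines, with adjusted p = 1 for each by limma with Benjamini-Hochberg adjustment. RECK, a membrane-anchored inhibitor of MMP2, MMP9 and MMP14, had levels of -3.37, -2.35, -2.82 and -3.30 as the mean of 2 probes. The order turned with the brightest probe alone (-1.37, -1.71, -2.02 and -1.50) and did not hold under normexp correction or in the deposited log2 values. TIMP4 was not well above background on any array.

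**Figure D5:**
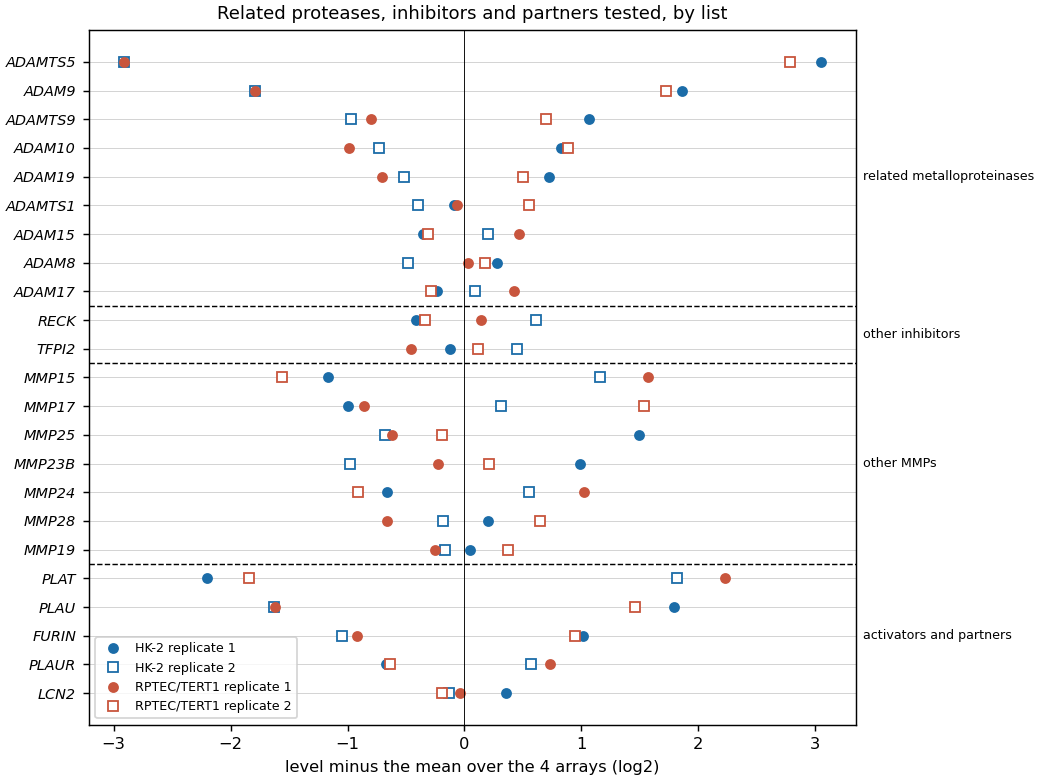
Level minus the mean of the 4 arrays (log2) for 23 of the 24 related genes tested, grouped by list, for HK-2 (blue) and RPTEC/TERT1 (red), circles for array 1 and open squares for array 2. In most rows with a wide range, such as PLAT and PLAU, a blue and a red point lie together on either side of 0. ADAMTS5 and ADAM9 were at the floor (a level of -5.37) on HK-2 array 2 and RPTEC/TERT1 array 1, so their points there coincide.

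For MMP9, the nearest of 13777 other genes well above background on all 4 arrays, by the root mean square difference of mean-centred levels over the 4 arrays, were RBM28 (0.0097), SPATA2 (0.016) and LAMA1 (0.020), and 615 genes lay within 0.2. For TIMP1 they were WHAMM (0.022), LFNG (0.029) and MOK (0.033), and 1286 genes lay within 0.2. So many genes lay this near that the order among the nearest carries little weight with 4 arrays.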

How the data were processed

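Gene expression was measured on 2 arrays of HK-2 and 2 of RPTEC/TERT1, grouped by the sample labels, after IL-1β and Empa. The authors deposited linear spot intensities from Agilent Feature Extraction 9.5.3.1, background-subtracted and detrended within each array but not scaled between arrays, and a series table of log2 values of the same spots. The ranks of the log2 values are those of the median spot signal less the local background, their scale matches an uncentred log2, their medians were 8.31, 7.04, 6.67 and 6.65 on HK-2 arrays 1 and 2 and RPTEC/TERT1 arrays 1 and 2, and whether they were scaled further is unknown. They were used as an alternative only. For RNA isolation the labels give the RNeasy kit and the methods innuPREP. No column of another sample was present.

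Control and outlier spots were left out, and processed signals were taken relative to the 75th percentile per array, floored at 0.0242 of it (a level of -5.37) and taken to log2. Repeated spots were averaged per probe, and detected probes per gene (well above background on 1 array or more), or every probe if none was detected. All 10 members have 1 probe, whose accession carries the same symbol in RefSeq. HK-2 was compared with RPTEC/TERT1 by limma 3.58.1 (R 4.3.3) over 16468 genes well above background on at least 2 arrays and with a value on all 4, with Benjamini-Hochberg adjustment at 0.05, and the step was tested on simulated data. The number of arrays limits the precision.

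Replicate number and scan date coincide, and as no slide held 2 of the arrays, slide and array cannot be told apart. Deviations of same-numbered arrays from their line means correlated at -0.810 across genes, so the numbers were not taken to pair the arrays. Named genes are the 10 members, pathway genes past the threshold (none), the 6 pathway genes of widest range among those well above background on all 4 arrays, TIMP4, RECK and the 3 genes nearest to each of the 2 members of widest range among those well above background on all 4 arrays (MMP9 and TIMP1). Some genes of the lists are not reported here by name. Members and lists were chosen with earlier results of these data known. Alternatives were background correction (normexp, offset 50), the deposited log2 values, quantile normalization, scaling to detected probes, filters on dim probes, outlier spots kept, the brightest probe, the replicate number as a block and leaving out each array. The crossed block, genes with values on 3 arrays and normexp without spots of local background over 100 units were added after seeing the data.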

Additional observations from a re-analysis of the deposited data

Results flagged for a closer look

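The MMP7 spot of HK-2 array 2 was left out because the scanner software marked it as uneven, so it entered no comparison. Its signal was 12062 units, well above background and not saturated, which corresponds to a level of 4.01. That lies between RPTEC/TERT1 array 1 (3.18) and RPTEC/TERT1 array 2 (7.40). If the spot is kept, the arrays of HK-2 (7.88 and 4.01) overlap those of RPTEC/TERT1, and both lines have a saturated and an unsaturated array. Whether the uneven spot reads the level of MMP7 correctly was not tested.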

How the results depend on the processing

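No gene, no member and no related gene was called different between the lines under any setting, so these counts stayed at 0, leaving out each array included (0 to 0), by limma with Benjamini-Hochberg adjustment. Between 3 and 241 genes, and no member or related gene, had an unadjusted p under 0.05. The difference of HK-2 minus RPTEC/TERT1 turned sign under normexp correction for MMP9 (0.95) and MMP14 (0.27), and in the deposited log2 values for MMP9 (0.56) and MMP14 (0.089). Without the 7 spots of bright local background on HK-2 array 1, normexp gave -0.042 and -0.13. When each array was left out in turn, the difference ran from -0.70 to 0.68 for MMP9, from -0.63 to 0.48 for TIMP1, from -0.31 to 0.17 for TIMP2 and from -0.33 to -0.091 for MMP14. It was above 0 without HK-2 array 1 or RPTEC/TERT1 array 1 for MMP9, and without array 2 of either line for TIMP1 and TIMP2; a line then has a single array, assumed to vary like the other line. The count of members whose lines did not overlap fell from 1 to 0 under normexp, in the deposited log2 values and under quantile normalization. The count of members over 1 log2 unit apart within a label was 2 of the 4 tested (MMP9 and TIMP1), became 3 of 5 with outlier spots kept, which adds MMP7, and 1 in the deposited log2 values and under normexp without the bright-background spots. In the main setting the lines did not overlap in 7.17% of all genes. The arrays lay over 1 apart in 34.0% within HK-2 and 40.4% within RPTEC/TERT1. Shares of all genes are not given for the other settings, so neither count is read as a result about the members. With the replicate number as a block the differences were the same (MMP9 -0.014, MMP14 -0.21, TIMP1 -0.071, TIMP2 -0.067) and no call changed. With the crossed pairing as a block 0 genes, 0 members and 0 related genes were called. The MMP7 gap, in the report, is a bound only under the scaling named with it. Saturation bounds MMP7 on 2 arrays, and 5 members at or near background give no level.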

Other observations

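Some related genes fell outside the rule for named genes and were chosen after their values were seen. ADAMTS5, an aggrecanase, had levels of 0.59 on HK-2 array 1 and 0.33 on RPTEC/TERT1 array 2 and no spot well above background on the others. LCN2, a secreted lipocalin of injured tubules whose protein forms a complex with MMP9, had levels of 5.70 and 5.21 on the HK-2 arrays and 5.31 and 5.15 on the RPTEC/TERT1 arrays, a range of 0.55.

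The antisense gene MMP24-AS1, also chosen after its values were seen, had levels of 3.06, -0.72, -0.46 and 3.22 on HK-2 arrays 1 and 2 and RPTEC/TERT1 arrays 1 and 2, while MMP24 had 2.26, 3.47, 3.95 and 2.00. The sense gene was lower on the arrays where the antisense gene was higher. Of all genes tested, 33.2% had the order of MMP24 and 38.8% that of MMP24-AS1. MMP25-AS1 had levels of -1.33, -1.62, -2.39 and -0.76. MMP25 and MMP25-AS1 did not go opposite ways, since both were higher on HK-2 array 1 and RPTEC/TERT1 array 2 than on the others.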
